A study of Homo sapiens with 12 samples.

Results

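Broad regions of histone acetylation that stand outside wide domains were described across 6 clones of SUDHL4, an established line from a diffuse large B-cell lymphoma that resembles germinal-centre B cells. Peaks of the 6 H3K27ac lists were joined wherever they shared at least 1 base, which gave 48876 merged regions, 47344 of them on chromosomes 1 to 22. A region was kept if peaks covered at least 3000 of its bases on average in the WT clones and if it overlapped no wide domain of any clone. A wide domain was a run of peaks of 1 clone, stitched across gaps of up to 12500 bases, with at least 10 kb of peaks. The rule gave 718 regions. Another 921 regions were as broad in WT but lay inside wide domains. The values that chose the 718 regions were the covered bases of the WT clones and, for the domains, the peaks of all 6 clones.

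H3K27ac, the acetylated lysine 27 of histone H3, marks active promoters and enhancers. CREBBP and EP300 are paralogous acetyltransferases that write this mark, and CREBBP is often mutated in germinal-centre lymphomas. Broad stretches of the mark lie over highly used promoters and over clustered enhancers, and in B cells the largest clusters lie at genes of cell identity.

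The clones were made with CRISPR/Cas9, isolated as single cells and kept as stable lines, per the labels. Clones CBP-E13-5 and CBP-E20-9 lacked CREBBP (CREBBP-KO, guides to exons 15 and 20), clones P300-E17-17 and P300-E24-5 lacked EP300 (EP300-KO, guides to exons 17 and 24), and clones N4-8 and N5-8 were edited at PPP1R12C and served as WT. The exon number in the name CBP-E13-5 differs from the exon its protocol states. Each line is 1 clone, so every spread below is a spread between 2 clones and holds clonal differences as well as technical ones. Below, the clones of a genotype are called the first and the second in the order given here. The CREBBP-KO lists held 36096 and 41099 peaks, the EP300-KO lists 35054 and 35841, and the WT lists 46940 and 40658. They covered 28.2 and 35.1 Mb in the CREBBP-KO clones, 26.1 and 26.2 Mb in the EP300-KO clones, and 33.9 and 31.3 Mb in the WT clones. The second CREBBP-KO clone therefore had the longest covered length of all, and the first stood nearer to the EP300-KO clones than to it. The read depth behind each list is unknown, and a base without a peak is one that the peak calling did not list, not one shown to lack the mark.

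The 718 regions were a few kilobases long and rarely alone. In WT they had a median of 3737 covered bases and a largest mean of 8621, with a median span of 4194 bases (3053 to 9911). Another merged region lay within 1 kb of 484 of them, and the median gap to the nearest one was 268.5 bases. The nearest other region was more than 12500 bases away for 102, and only 31 had none within 50 kb. They were thus set apart from wide domains (median distance 989472 bases, lowest 12518) but not from smaller peaks. Counted with those neighbours, the stitched stretch that held a region had a median of 5281 peak bases in WT, of which a median of 80.5% lay in the region. The stretch came to at least 9 kb in some clone for 63 regions, just below the limit that would have made it a wide domain. Every autosome held some, between 7 on chromosome 21 and 65 on chromosome 1. On chromosome 18, 66.7% of the broad regions were outside wide domains (22 of 33), and on chromosome 20, 34.9% were (22 of 63).

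These regions kept most of their acetylated length in all 6 clones. All but 4 had a peak in every clone, and in 492 of the 718 (68.5%) each of the 4 knock-out clones had between 75 and 125% of the WT mean. The choice of regions long in WT bears on both counts. Other regions were not counted in this way, so neither is shown to be particular to the 718. Over all 718 regions peaks covered 2.81 and 3.08 Mb in the CREBBP-KO clones, 2.53 and 2.58 Mb in the EP300-KO clones, and 2.88 and 2.95 Mb in the WT clones. Both EP300-KO clones were below both CREBBP-KO clones, while the CREBBP-KO clones spanned the WT clones. In CREBBP-KO the total came to 2944 ± 196 kb, and in EP300-KO to 2558 ± 36.8 kb (SD, n = 2 each). The difference of 387 kb had p = 0.333 in an exact permutation test (two-sided), and no smaller p can be had from 2 clones on each side. In WT the total was 2914 ± 50.99 kb. As a share of all bases in a clone's list, the regions held 9.94 and 8.78% in CREBBP-KO, 9.71 and 9.85% in EP300-KO, and 8.50 and 9.43% in WT. On that scale the EP300-KO clones lay within the range of the CREBBP-KO clones (exact permutation p = 1).

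In plain bases, the lower total in EP300-KO came with a moderately shorter median region and with a tail of few strongly shortened regions. The median region had 97.3 and 104% of its WT mean in the CREBBP-KO clones and 91.3 and 91.9% in the EP300-KO clones. Fewer than 50% of the WT bases were left in 7 and 3 regions of the CREBBP-KO clones and in 26 and 21 regions of the EP300-KO clones. Both EP300-KO clones were under 50% at 16 regions, and at 9 of those both CREBBP-KO clones kept at least 75%. Both CREBBP-KO clones were under 50% at 3 regions, and 2 of these were under 50% in EP300-KO as well. No region was without a peak in a CREBBP-KO clone, 2 had none in either EP300-KO clone and 2 more had none in 1 of them. Such losses were not counted over all regions tested, so these counts do not set the 718 regions apart. The WT clones are near 100% here because they set the scale. These shares are in plain bases and carry the shorter lists of the EP300-KO clones. In the fit described below, which centres each clone on its median, EP300-KO was not shorter than WT at the median region. The log2 difference of EP300-KO minus WT had a median of 0.08 over the 718 regions and 0.06 over all regions tested. It was above 0 at 458 of the 718 and below 0 at 260.

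**Figure D1:**
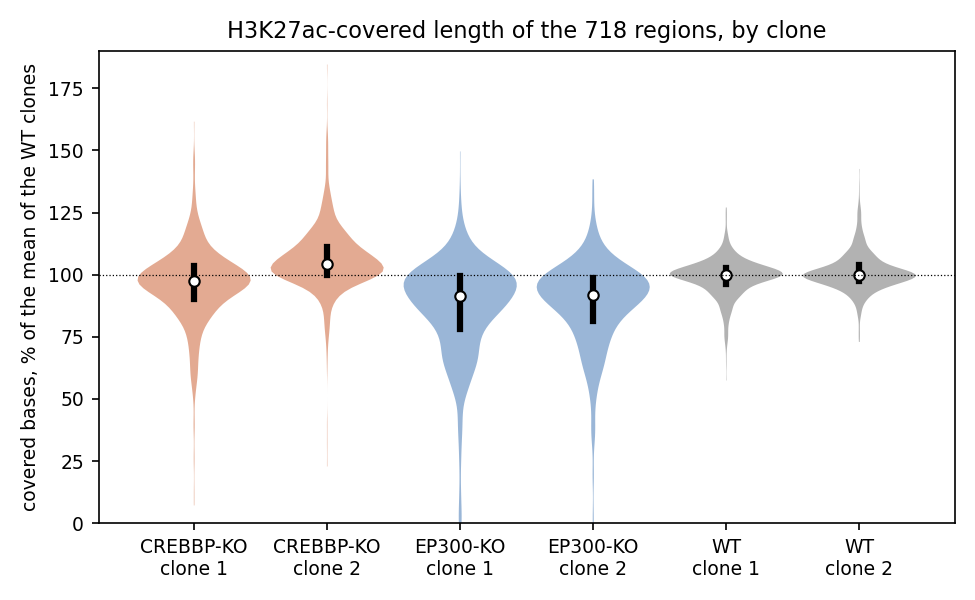
Covered bases of the 718 regions in each clone, as a percentage of the mean of the WT clones; violins show the distribution over regions, black bars the middle 50% and white points the median. The medians were 97.3 and 104% in the CREBBP-KO clones and 91.3 and 91.9% in the EP300-KO clones, whose distributions reach down to 0.

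The knock-outs were compared with each other to ask where CREBBP and EP300 loss differ, in clones that the 3000-base threshold had not used. Covered length was fitted with limma as log2(covered bases + 100), centred on each clone's median, over the 19860 regions in which 2 or more clones had 500 bases or more. All 718 regions entered. At a Benjamini-Hochberg adjusted p of 0.05, 42 were higher and 8 lower in CREBBP-KO, which is 6.96% of the regions, where 9.11% of all regions tested were called. Higher calls made up 5.85% of the 718 and 7.21% of all regions, and lower calls 1.11% of the 718 and 1.9% of all regions. In this fit the share called was below that of all regions. The median log2 difference was -0.03 over the 718 regions and -0.04 over all regions, relative to a shift of 0.16 between the clone medians that the centring removed. That order turned with the scaling. Without centring 86 regions were higher and 1 was lower (12.1% of the 718, against 9.5% of all regions), and after quantile normalization 42 were higher and 28 lower (9.75%, against 6.2%). The fit rests on every knock-out clone. Fewer regions were called when any 1 knock-out clone was left out, among all regions tested as well as among the 718. Such a fit has only 1 clone in a genotype. The difference in total covered length, CREBBP-KO minus EP300-KO, then ran from 249 to 525 kb. Before adjustment, 163 regions had p under 0.05 (22.7%, against 27.3% of all regions).

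In plain covered bases both CREBBP-KO clones were above both EP300-KO clones at 457 regions (63.6%, against 46.4% of all regions tested), and the reverse held at 39 (5.43%, against 12.4%). These counts are not centred and carry the longer lists of the CREBBP-KO clones. Among regions, the log2 ratio of the first CREBBP-KO to the first EP300-KO clone and that of the second pair had a Pearson r of 0.79 and a Spearman rho of 0.74 over the 718 regions, which share their 4 clones. With the clones crossed, rho was 0.69.

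**Figure D2:**
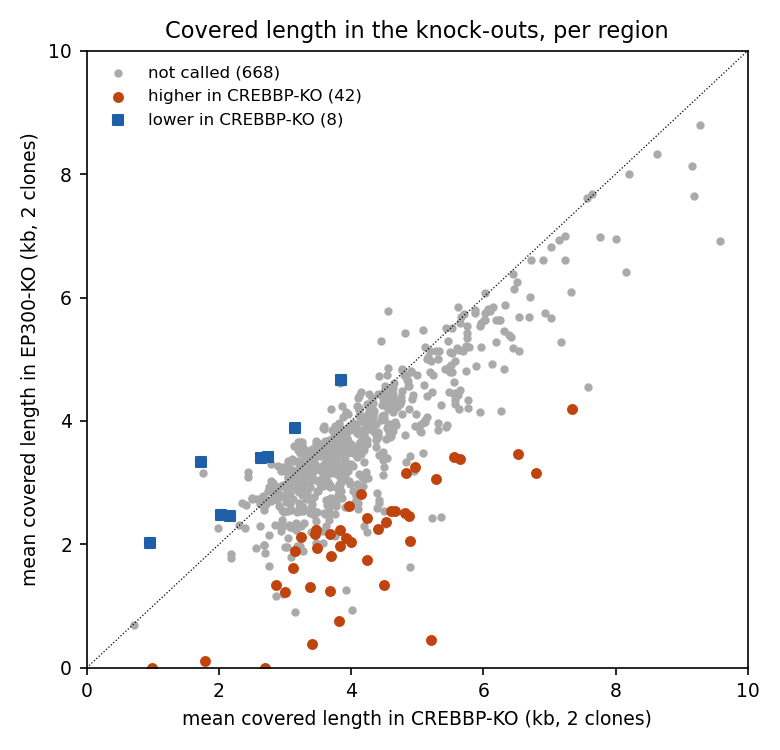
Mean covered length of each of the 718 regions in CREBBP-KO (x axis, kb) and EP300-KO (y axis, kb), each over 2 clones; the dotted line marks equal length before centring. The 42 regions called higher in CREBBP-KO lie below the line, 2 of them at 0 in EP300-KO, and the 8 called lower in CREBBP-KO lie above it.

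Set against the WT mean, the 42 regions that were higher in CREBBP-KO had a median length of 100% in the CREBBP-KO clones and 56.3% in the EP300-KO clones. The choice of regions that are long in WT bears on this, since a region short in WT and long in CREBBP-KO could hardly enter. They lay on 18 chromosomes, with a median log2 difference of 0.75 (0.38 to 4.60), and 12 exceeded 1. The 8 regions that were lower in CREBBP-KO showed smaller differences, with a median of -0.46, and by the median 72.4% of the WT length was left in CREBBP-KO, as against 96.6% in EP300-KO. Gene positions in what follows are hg19 positions from general knowledge, with only chromosome and gene length checked against RefSeq, and nearness to a gene does not assign a region to it.

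The largest difference was at chr9:114794927-114798507 (hg19), next to the position of SUSD1. It had 2016 and 3384 covered bases in the CREBBP-KO clones, no peak in either EP300-KO clone, and 3262 and 3471 bases in the WT clones. The second CREBBP-KO clone was as long as WT, and the knock-outs did not overlap (log2 difference 4.60, SE 0.18, adjusted p = 0.0016). The size depends on the 100 bases added, and came to 7.85 with 10 bases and 1.78 with 1000. Of the 12 regions named for this contrast, 1 stayed past the threshold in all 16 alternatives, and it was this one.

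A region at chr17:75315234-75320623, inside SEPTIN9, a septin of the cytoskeleton, was nearly gone without EP300 and full length without CREBBP. It had 5038 and 5390 bases in the CREBBP-KO clones, 147 and 769 in the EP300-KO clones, and 3127 and 4434 in the WT clones. Both CREBBP-KO clones were above both WT clones (CREBBP-KO minus EP300-KO, log2 difference 3.36, SE 0.58, adjusted p = 0.029). At chr18:46458005-46461972, inside SMAD7, an inhibitor of TGF-beta signalling, the CREBBP-KO clones had 3795 and 3845 bases, the EP300-KO clones 452 and 1067, and the WT clones 3766 and 3736. The CREBBP-KO clones were slightly above both WT clones and the EP300-KO clones far below (CREBBP-KO minus EP300-KO, log2 difference 2.12, SE 0.34, adjusted p = 0.024). Peaks within 50 kb of that region leaned the other way, with a log2 difference of -0.43.

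Between the positions of SLAMF1 and CD48, which code for surface receptors of the SLAM family, chr1:160641874-160645526 had 3184 and 3648 bases in the CREBBP-KO clones, 213 and 569 in the EP300-KO clones, and 3447 and 3401 in the WT clones. CREBBP-KO and WT overlapped and EP300-KO stood apart (CREBBP-KO minus EP300-KO, log2 difference 2.77, SE 0.34, adjusted p = 0.014). Between TCL1B and TCL1A, a co-activator of AKT expressed in B cells, chr14:96161529-96165250 had 1280 and 2291 bases in the CREBBP-KO clones, 0 and 218 in the EP300-KO clones, and 3597 and 3173 in the WT clones. Here both knock-outs were below WT, EP300-KO much further (CREBBP-KO minus EP300-KO, log2 difference 3.18, SE 0.54, adjusted p = 0.028).

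The same order of genotypes held at chr4:26827573-26834401, upstream of the position of STIM2, a calcium sensor of the endoplasmic reticulum. It had 734 and 1239 bases in the CREBBP-KO clones, none in the EP300-KO clones, and 4142 and 6719 in the WT clones. All 4 knock-out clones were under 50% of WT, and CREBBP-KO was above EP300-KO (log2 difference 3.24, SE 0.29, adjusted p = 0.0070). The WT clones themselves differed widely, and the call ended with 1000 bases added (log2 difference 0.89) and without either CREBBP-KO clone (adjusted p from 0.0043 to 0.053 over the alternatives).

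Of the 8 regions lower in CREBBP-KO, 2 differed by more than 1 on the log2 scale. At chr8:67444895-67448733, near the position of MYBL1, a transcription factor of germinal-centre B cells, peaks covered 843 and 1059 bases in the CREBBP-KO clones, 1817 and 2228 in the EP300-KO clones, and 3839 and 2769 in the WT clones. The 3 genotypes did not overlap, and both knock-outs were below WT (CREBBP-KO minus EP300-KO, log2 difference -1.18, SE 0.16, adjusted p = 0.017). At chr11:118189003-118192772, between the positions of CD3E and CD3D, which code for chains of the T-cell receptor complex, they covered 1361 and 2105 bases in the CREBBP-KO clones, 3371 and 3307 in the EP300-KO clones, and 3685 and 3076 in the WT clones. EP300-KO lay within the WT range and CREBBP-KO below it (CREBBP-KO minus EP300-KO, log2 difference -1.10, SE 0.14, adjusted p = 0.014). No clone had a peak at the start of CD3E itself.

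The other named regions of this direction lay in SEMA4B (chr15:90733051-90736605), a semaphorin, in TPM4 (chr19:16187300-16191086), a tropomyosin, at the start of NCAPG (chr4:17810356-17814482), a condensin subunit, and in EPB41 (chr1:29252237-29255497), a protein of the membrane skeleton. Their log2 differences ran from -0.52 to -0.44, with adjusted p from 0.021 to 0.043. At SEMA4B the CREBBP-KO clones had 2586 and 2692 bases, the EP300-KO clones 3254 and 3555, and the WT clones 3426 and 2993. At NCAPG the CREBBP-KO clones had 2986 and 3326 bases, the EP300-KO clones 3837 and 3924, and the WT clones 3258 and 3363, so that EP300-KO was the group outside the WT range. The EPB41 region was the least firm and lost its call in 11 of 16 alternatives. Without the first CREBBP-KO clone 11 of the 12 named regions missed the threshold, and without the second 10 did. None of the 12 changed direction in any alternative, but without centring each of the 6 lower ones missed the threshold.

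**Figure D3:**
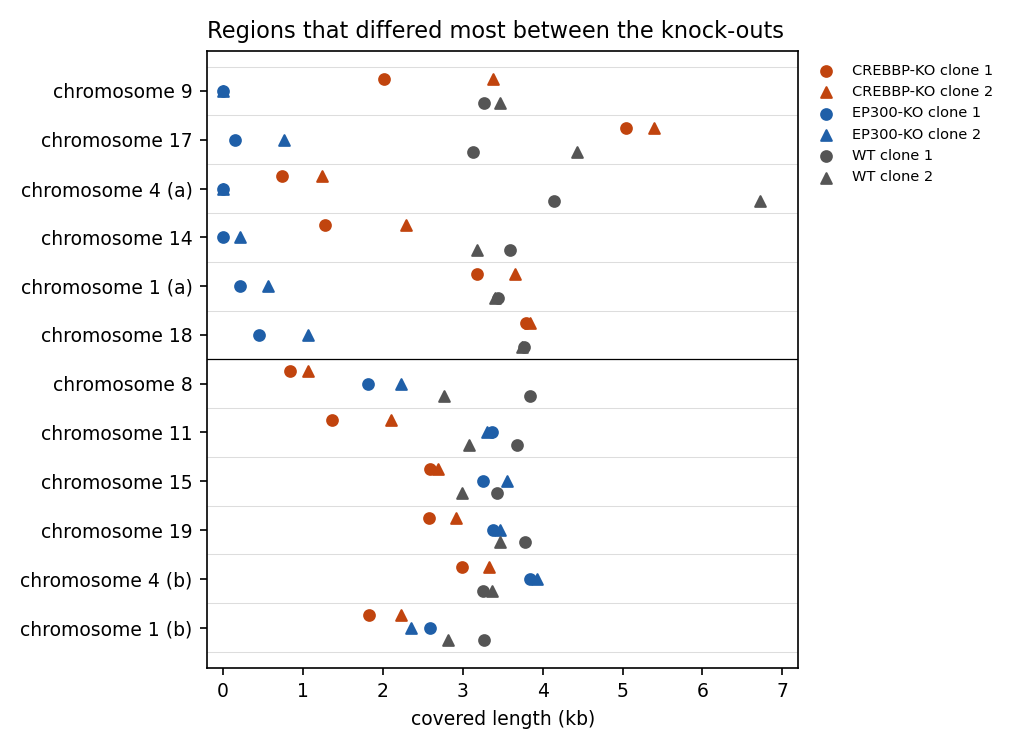
Covered length (kb) in each clone at the 6 regions with the largest differences in each direction, named by chromosome; colours are genotypes, circles the first and triangles the second clone, and the line separates regions higher (top) from regions lower (bottom) in CREBBP-KO than in EP300-KO. No EP300-KO clone is above 1067 bases in the upper rows, and the differences in the lower rows are smaller.

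The peaks around the called regions leaned the same way, but some of them belonged to other called regions. Flanks took in every other merged region within 50 kb. For example, chr1:160620663-160624008 and chr1:160641874-160645526 were both called higher in CREBBP-KO and lay in each other's flanks. Within 50 kb, 34 of the 42 regions higher in CREBBP-KO had at least 500 bases of other peaks in some clone, and the log2 difference of these flanking peaks had a median of 0.60 and was above 0 for 32. For the 8 lower regions the flanks of 7 could be measured, with a median of -0.28 and 1 above 0. At the regions not called, the flanks had a median of 0.18 and were above 0 for 399 of 604. Over the 645 regions with such flanks, the difference of a region and that of its flanks had a Pearson r of 0.30 and a Spearman rho of 0.47, across regions that share the same 6 lists.

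What the knock-out clones lacked lay more at the ends of the regions than in the middle, most so in the EP300-KO clones. Each region was laid on the span that WT peaks covered, and the share of bases under a peak was averaged over the 718 regions. In the centre, from 25 to 75% of the span, it was 94.1 and 98.0% in the CREBBP-KO clones, 90.3 and 91.3% in the EP300-KO clones, and 93.5 and 96.3% in the WT clones. In the outer 10% at each end it was 67.1 and 85.5% in the CREBBP-KO clones, 51.8 and 54.0% in the EP300-KO clones, and 85.8 and 82.6% in the WT clones. The first CREBBP-KO clone was thus intermediate at the ends and the second like WT. CREBBP-KO exceeded EP300-KO by 5.25 percentage points in the centre and by 23.4 at the ends (exact permutation p = 0.333 each, 2 clones against 2). The WT values are high in part because WT peaks set the ends. For the same reason, part of the fall at the ends in the knock-out clones was fixed in advance. Even the second WT clone fell to 75.9 and 75.3% at 2.5 and 97.5% of the span. No other set of regions was laid out in this way, so the pattern is not shown to be particular to the 718.

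Of the 2700.2 kb covered in both WT clones, 6.77 and 1.89% had no peak in the CREBBP-KO clones, and 14.2 and 12.2% had none in the EP300-KO clones. Missing bases at an end of a region made up 59.3 and 56.4% of the missing bases in the CREBBP-KO clones and 66.1 and 62.4% in the EP300-KO clones, and the others lay inside a region, between kept peaks, or in regions left with no peak. The 72 regions with most missing bases held 44.4 and 66.9% of them in the CREBBP-KO clones and 38 and 38.3% in the EP300-KO clones. These 72 were ranked by the same bases, so a share above 10% was fixed in advance. At the same time peaks reached beyond the WT span by 21.7 and 58.8 kb in all in the CREBBP-KO clones and by 12.9 and 12.545 kb in the EP300-KO clones.

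**Figure D4:**
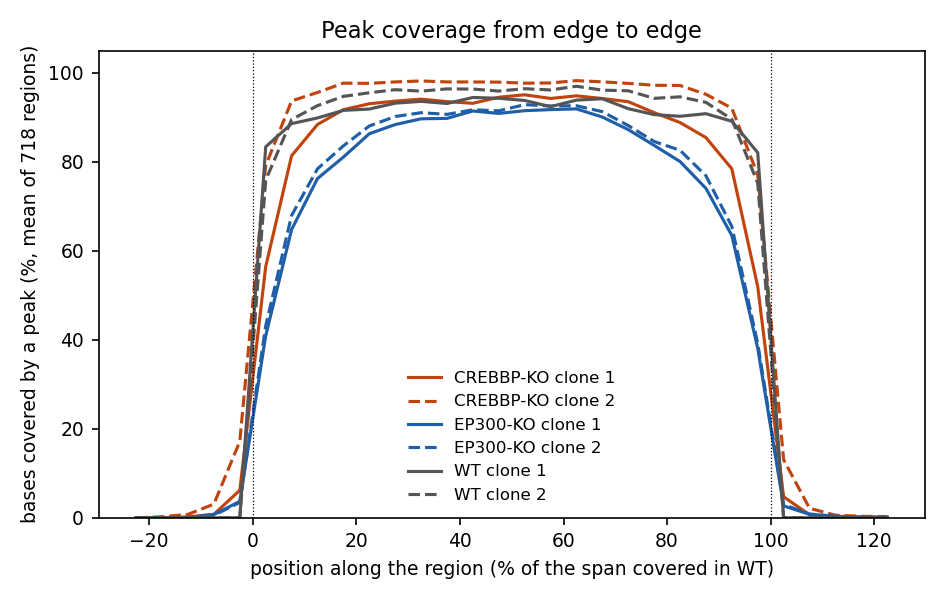
Share of bases under a peak along the 718 regions, with 0 and 100% at the ends of the span covered in WT (dotted), for each clone. The EP300-KO clones fall away toward the ends, at 51.8 and 54.0% over the outer 10% at each end, while all clones average above 90% from 25 to 75% of the span.

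The regions were also cut into peaks differently. Each held a mean of 1.97 and 1.47 peaks in the CREBBP-KO clones, 1.97 and 2.12 in the EP300-KO clones, and 2.13 and 1.92 in the WT clones. The second CREBBP-KO clone stood apart, with 469 regions under a single peak, where the first had 297, the EP300-KO clones 299 and 254, and the WT clones 288 and 300. Only 68 regions were a single peak in all 6 clones. The number of peaks was 1.72 ± 0.355 in CREBBP-KO and 2.05 ± 0.103 in EP300-KO (SD, n = 2 each, exact permutation p = 0.333), and the first clones of both knock-outs were nearly equal. The longest peak of a region averaged 3240 and 3897 bases in the CREBBP-KO clones, 2950 and 2919 in the EP300-KO clones, and 3242 and 3388 in the WT clones. Both EP300-KO clones had the shorter longest peak, by 634 bases on average against CREBBP-KO (exact permutation p = 0.333), which became 305 bases without the second CREBBP-KO clone. By the authors' score per peak, whose meaning is not stated, the best peak of the median region ranked at percentile 92.0 and 93.3 of its list in the CREBBP-KO clones, 91.2 and 90.8 in the EP300-KO clones, and 94.5 and 92.3 in the WT clones.

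**Figure D5:**
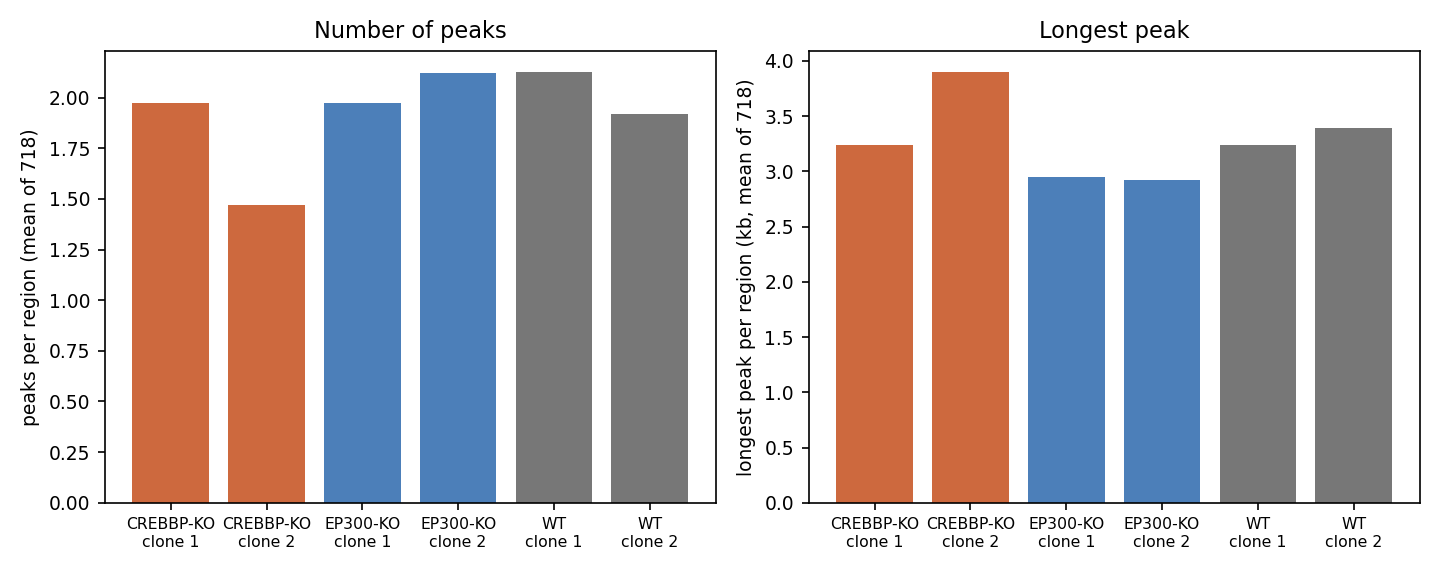
Mean number of peaks (left) and mean length of the longest peak in kb (right) over the 718 regions in each clone; each bar is 1 clone. The second CREBBP-KO clone has the fewest and longest peaks (1.47 per region, 3897 bases), and the EP300-KO clones have the shortest longest peaks.

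Set beside the broad regions inside wide domains, a smaller share of the 718 regions was called between the knock-outs. Inside domains 102 of 921 regions (11.1%) were called in CREBBP-KO minus EP300-KO, all higher in CREBBP-KO, and both CREBBP-KO clones were above both EP300-KO clones at 754 (81.9%). The median log2 ratio to WT was -0.04 and 0.06 in the CREBBP-KO clones and -0.13 and -0.12 in the EP300-KO clones outside domains, against -0.01 and 0.07 in the CREBBP-KO clones and -0.19 and -0.15 in the EP300-KO clones inside domains. Outside minus inside, that is -0.02 in CREBBP-KO and 0.05 in EP300-KO (means of 2 clones, exact permutation p = 0.333), so the test of the difference did not pass and could not have. The rule itself bears on this in 2 ways. Wide domains of the knock-out clones took part in the split, so a region made longer in CREBBP-KO could fall inside, and regions inside are longer (median 4487 bases in WT). With wide domains of the WT clones only, 61 of 803 regions outside were called (7.6%) and 91 of 836 inside (10.9%). Among regions of 3000 to 5000 bases in WT the difference was -0.02 in CREBBP-KO and 0.08 in EP300-KO, with the same p. Shorter regions outside domains, with 1000 to 3000 bases in WT, had medians of -0.10 and 0.04 in the CREBBP-KO clones and -0.12 and -0.12 in the EP300-KO clones. Of those 6341 regions, 305 were higher and 144 lower in CREBBP-KO (7.08%).

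The starts of 42 listed genes, most of them B-cell genes, were placed on the regions, allowing 1 kb on either side. The starts of 6 lay in 1 of the 718 regions, those of 15 in a wide domain, those of 11 in another region and those of 10 in none. The germinal-centre and B-cell genes BCL6, IRF8, PAX5, EBF1, CD79A and MS4A1 were among the 15. Other genes of the B-cell lists, CD40, CXCR4, CD83, HLA-DRA and BCL2, were among the 11. The T-cell, monocyte and liver markers CD3E, CD2, CD5, CD14, LYZ and ALB were all among the 10, as were the plasma cell factors PRDM1, IRF4 and XBP1. The 10 also held PTPN6, from the list of B-cell receptor and surface genes, so the lists did not split cleanly.

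Among the 6 starts in these regions were those of POU2AF1, MYC, IKZF3, ACTB and GAPDH. At POU2AF1 (chr11:111247985-111253626), a co-activator needed for germinal centres, the covered bases were 5514 and 5529 in CREBBP-KO, 5623 and 5398 in EP300-KO, and 5126 and 5469 in WT. EP300-KO overlapped both other groups, and CREBBP-KO was above WT. At IKZF3 (chr17:38016783-38022859), which codes for the transcription factor Aiolos, they were 5822 and 6077 in CREBBP-KO, 5413 and 5651 in EP300-KO, and 4158 and 5539 in WT, where the first WT clone alone was short.

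At MYC (chr8:128747042-128752252), the growth-promoting transcription factor, peaks covered 5211 and 5097 bases in the CREBBP-KO clones, 4400 and 4417 in the EP300-KO clones, and 4632 and 5022 in the WT clones. The knock-outs do not overlap in plain bases, but the centred log2 difference was 0.06 (adjusted p = 0.78), because the clone medians differ as well. At ACTB (chr7:5567364-5573567), for cytoplasmic actin, the order was the other way, with 4688 and 4422 bases in the CREBBP-KO clones, 5852 and 5709 in the EP300-KO clones, and 6204 and 5861 in the WT clones. The knock-outs did not overlap, and the difference missed the threshold (log2 difference -0.50, SE 0.12, adjusted p = 0.065). At GAPDH (chr12:6641166-6645775), for a glycolytic enzyme, the values were 4200 and 4460 in CREBBP-KO, 4036 and 4094 in EP300-KO, and 4277 and 4542 in WT. None of the regions at these starts was called between the knock-outs.

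Windows of 1 Mb that held the same genes gave a wider view. They ran between whole Mb positions and were not centred on the genes, so a region can lie close to 1 Mb from the gene of its window. Of 44 windows, 23 held 33 of the 718 regions, and 0 of these were called higher and 1 lower in CREBBP-KO, the region between CD3E and CD3D. Over all regions tested 7.21% were called higher and 1.9% lower, so this count sets the 33 apart in no way. The log2 difference was above 0 at 15 of them and below 0 at 18, and the regions that follow were picked after their values were seen. In the CXCR4 window, CXCR4 being the chemokine receptor of dark zone B cells, chr2:136010101-136014983 had 4161 and 4630 bases in the CREBBP-KO clones, 2593 and 3069 in the EP300-KO clones, and 4883 and 4306 in the WT clones. EP300-KO stood below both others, and the difference between the knock-outs just missed the threshold (log2 difference 0.46, adjusted p = 0.055). In the window of CIITA, the master regulator of MHC class II genes, chr16:11389558-11394010 had 4067 and 4142 bases in the CREBBP-KO clones, 2735 and 2415 in the EP300-KO clones, and 4052 and 4438 in the WT clones (CREBBP-KO minus EP300-KO, log2 difference 0.49, adjusted p = 0.074). A region in 1 of the windows of PAX5, the B-lineage identity factor, chr9:36028680-36032654, had 3063 and 3866 bases in the CREBBP-KO clones, 1929 and 2129 in the EP300-KO clones, and 2969 and 3955 in the WT clones (CREBBP-KO minus EP300-KO, log2 difference 0.57, adjusted p = 0.096). In these 3 regions EP300-KO did not overlap the other genotypes, but no difference passed. In the other direction, a second region in the POU2AF1 window, chr11:111046890-111050181, had 1976 and 2719 bases in the CREBBP-KO clones, 2527 and 2825 in the EP300-KO clones, and 3292 and 2936 in the WT clones, and the knock-outs overlapped (CREBBP-KO minus EP300-KO, log2 difference -0.36, adjusted p = 0.093). The second PAX5 region, chr9:37574028-37577655, had a log2 difference of -0.15. A window holds many genes, and these regions are named by it only for their place.

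The longest regions kept most of their length in every clone. The longest in WT, chr6:10528544-10537534, had 8413 and 8848 bases in the CREBBP-KO clones, 8463 and 8178 in the EP300-KO clones, and 8649 and 8592 in the WT clones. The next were chr12:25203892-25213131 (9230 and 9158 in CREBBP-KO, 7433 and 7851 in EP300-KO, 8050 and 9177 in WT) and chr14:107251990-107261385, in the immunoglobulin heavy-chain locus (9196 and 9359 in CREBBP-KO, 8773 and 8822 in EP300-KO, 8018 and 9030 in WT). In plain bases these last 2 were shorter in both EP300-KO clones than in both CREBBP-KO clones. So was chr12:99781349-99791259 in ANKS1B, with 9257 and 9911 bases in CREBBP-KO, 7016 and 6818 in EP300-KO, and 7461 and 8753 in WT. After centring, the log2 difference of CREBBP-KO minus EP300-KO was 0.10 at chr12:25203892-25213131 and 0.30 at ANKS1B. At the chromosome 14 region it was -0.09, the other direction. At chr4:153582541-153590477 the clones had 7384 and 7755 bases in CREBBP-KO, 7512 and 7712 in EP300-KO, and 7728 and 7739 in WT. None of these 5 was called between the knock-outs (adjusted p from 0.20 to 0.67).

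Against WT the regions are described only, because WT values chose them. In CREBBP-KO minus WT 0 of 718 were called (0.0101% of all regions tested), and 45 had an unadjusted p under 0.05 (6.27%, against 8.83% of all regions). In EP300-KO minus WT 3 were higher (0.418%, against 1.21% of all regions tested) and 36 lower (5.01%, against 6.13%), together 5.43% where 7.34% of all regions were called. In plain bases both EP300-KO clones were above both WT clones at 49 regions (6.82%, against 9.82% of all regions tested) and below both at 419 (58.4%, against 50.4%). Both CREBBP-KO clones were above both WT clones at 19.6% of the 718 regions (against 16.2%) and below both at 15% (against 17.6%). The most negative in CREBBP-KO, after the STIM2 region, was chr6:7914818-7918382, with 217 and 1220 bases in the CREBBP-KO clones, 771 and 609 in the EP300-KO clones, and 3565 and 2519 in the WT clones. Both knock-outs were short there. At chr2:45953767-45958205 the CREBBP-KO clones had 975 and 2541 bases, the EP300-KO clones 3240 and 3064, and the WT clones 4439 and 2864, so that the first CREBBP-KO clone made most of the difference. The MYBL1 and CD3E regions complete the 5.

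The most positive in CREBBP-KO was chr9:128392619-128399503, with 5900 and 6740 bases in the CREBBP-KO clones, 4697 and 4991 in the EP300-KO clones, and 4128 and 3174 in the WT clones. Both knock-outs were longer than WT, and CREBBP-KO more so. At the next 3, on chromosomes 12, 1 and 18, a single short WT clone carried the difference, as at chr12:41585683-41591589 (5878 and 5907 in CREBBP-KO, 4661 and 5110 in EP300-KO, 2297 and 5702 in WT). At chr1:178611719-178616463 the values were 4481 and 4615 in CREBBP-KO, 3379 and 3413 in EP300-KO, and 3731 and 2431 in WT.

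In EP300-KO minus WT the 5 most negative were the regions named above on chromosomes 4, 9, 14 and 17, and chr5:100189764-100194025. The last had 3771 and 4262 bases in the CREBBP-KO clones, 0 and 1874 in the EP300-KO clones, and 3093 and 3957 in the WT clones, so the EP300-KO clones disagreed. Of the 5 most positive, chr6:157542924-157547675 had 4513 and 4721 bases in the CREBBP-KO clones, 4630 and 4282 in the EP300-KO clones, and 2998 and 3191 in the WT clones. It was longer in all 4 knock-out clones than in either WT clone, as was the chromosome 9 region above, while 3 others had 1 short WT clone.

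When broad regions were chosen on 1 WT clone and compared with the other, the outcome turned on the clone. Chosen on the first WT clone (721 regions) and compared with the second, 0 were called in CREBBP-KO, and in EP300-KO 2 were higher and 14 lower (2.22%, where 3.89% of all 18872 regions tested were called). Chosen on the second (754 regions) and compared with the first, 23 were higher and 0 lower in CREBBP-KO (3.05%, where 1.24% of all 19248 were called), and 35 were higher and 11 lower in EP300-KO (6.1%, where 5.02% were called). The lone WT clone was assumed to vary like the other groups. The balance of higher and lower calls in EP300-KO therefore depended on the WT clone. The median log2 difference of EP300-KO minus WT was above 0 both times. It was 0.04 with the first choice and 0.14 with the second, against 0.04 and 0.06 over all regions tested. For CREBBP-KO minus WT it was -0.0012 and 0.10, against 0.0003 and 0.03 over all regions tested.

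At the threshold, the regions just inside and just outside were alike in WT. The closest inside, chr22:40445052-40448168, had 2827 and 3012 bases in the CREBBP-KO clones, 2711 and 2904 in the EP300-KO clones, and 2970 and 3031 in the WT clones. The closest outside, chr7:69879283-69882981, had 3442 and 3660 bases in the CREBBP-KO clones, 3263 and 3430 in the EP300-KO clones, and 3165 and 2827 in the WT clones. The next 2 inside, chr4:146098631-146101710 and chr6:89854150-89857356, ran from 2591 to 3080 bases in the CREBBP-KO clones, from 2947 to 3046 in the EP300-KO clones and from 2907 to 3103 in the WT clones. The next 2 outside, chr7:69417091-69420544 and chr6:91093114-91096396, ran from 2880 to 3413 bases in the CREBBP-KO clones, from 1207 to 2447 in the EP300-KO clones and from 2900 to 3087 in the WT clones, so both were short in EP300-KO.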

How the data were processed

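H3K27ac ChIP-seq libraries of 6 clones, each with its own input, were analysed from the deposited peak lists. CASAVA 1.8, SAMtools 0.1.19 and Bowtie2 2.1.0 are named with the build hg19, per the submitters' processing notes. Each list was made per clone against the clone's input, per the file headers, and which program called peaks is not given in the sources. The lists hold deposited positions and a score per peak, which is the authors' own value without a stated meaning. Starts were read as counted from 0, so a printed start may be off by 1 base. Depth is unknown, so no interval covers it.

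Regions were tested with limma 3.58.1 (R 4.3.3) as described in the text, with a trend of the spread on mean covered length and 1 estimate of the spread for all 6 clones. The trend was chosen after the fits with and without it had both been seen. The fit was also run on simulated lengths with the same log2 spread at every region and no absent peaks. The real lists differ in both, so that run does not show how the fit behaves on them. Exact permutation tests over clones form a family of 21, in which the smallest p of 0.333 becomes 0.368 when adjusted by Benjamini-Hochberg. Named regions are the 6 called between the knock-outs with the largest difference in each direction, the 5 longest in WT, the 5 most extreme against WT in each direction, the 3 next to the threshold on each side, and those in windows of 1 Mb with a listed gene, from which a few were taken after their values were seen. The regions, gene lists and windows were chosen with earlier results of these data known. Replicate numbers only name clones. No genome of the build hg19 was used, so no sequences are given. The region at 1 of the 6 listed gene starts is not reported here.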

Additional observations from a re-analysis of the deposited data

How the results depend on the processing

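No paired analysis was possible because the labels pair no clone of one genotype with a clone of another. For CREBBP-KO minus EP300-KO the 50 calls became 87 without centring and 24 without a trend in the spread (added after seeing the data), and 8 to 55 when 1 clone was left out. With wide domains taken from the WT clones only (also added), 803 regions gave 61 calls. The share called was below that of all regions in the reported fit. It was above it without centring, after quantile normalization, with 1000 bases added (10.4% against 10.3%) and without the filter on covered bases (5.29% against 4.42%). In every other alternative it was below, those with 1 clone left out included. Without a trend it was 3.34% against 7.53%, and with only the 4 clones compared 8.22% against 11.2%. For EP300-KO minus WT the share was also below in those 2 settings (2.37% against 6.39% and 3.48% against 5.89%) and whenever 1 clone was left out. For EP300-KO minus WT the 39 calls (5.43% against 7.34% of all regions) became 65 with 1000 bases added (9.05% against 8.43%), 80 without centring (11.1% against 7.95%), 52 after quantile normalization (7.24% against 5.2%), 29 without the filter (4.04% against 3.53%), 25 with only the 4 clones compared, 17 without a trend, 16 when chosen on the first WT clone, and 18 to 28 with 1 clone left out. For CREBBP-KO minus WT the 0 calls became 23 when chosen on the second WT clone, and 0 to 4 with 1 clone left out, the 4 being without the second WT clone. The number of regions was 1187 at a limit of 2500 bases and 279 at 4000. The median length in EP300-KO was 91.6% of WT and 90.7% with a stitching gap of 5 kb or 90.5% with domains of 15 kb. With 1 knock-out clone left out, CREBBP-KO minus EP300-KO ran from 249 to 525 kb in total length, from -0.576 to -0.0745 in peaks per region, and from 305 to 962 bases in the longest peak. The cause of these moves was not tested. With 2 clones per genotype and unknown depth, smaller differences could not be resolved.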
